A study of Mus musculus with 2 samples.

Results

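The miRNAs of the rodent Sfmbt2 cluster, miR-297, miR-466, miR-467 and miR-669, were followed in ischemic mouse hindlimb muscle. Members were taken by name, as every precursor row starting with one of these 4 names. Of the 1187 precursors (hairpins from which mature miRNAs are cut) in the deposited tables, 82 were members: 6 of miR-297, 29 of miR-466, 17 of miR-467 and 30 of miR-669. The choice used no measured value, and rows without reads were kept.

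Small RNA came from muscle taken 1 day after surgery in which the femoral artery was removed, and both groups had this ischemia. The hypercholesterolemic library (HC) came from ApoE-/- mice, which lack apolipoprotein E and clear lipoprotein remnants poorly, and the design text adds a high-fat diet. The normocholesterolemic library (NC) came from C57Bl/6 control mice. Genotype and diet thus differ together and cannot be told apart, the sources used here name neither the strain background of the ApoE-/- mice nor the age and number of animals, and no muscle without ischemia was analysed here. Each group held 1 library, so no test between conditions was possible, and every interval given is a 95% interval of counting error in these 2 libraries.

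Sfmbt2 encodes a Polycomb-group protein and is an imprinted gene, expressed from the paternal allele in extraembryonic tissues of the mouse. One of its introns holds a large, rodent-specific run of miRNA hairpins that arose by repeated duplication, best known for its activity in the placenta and in embryonic stem cells. A miRNA pairs with target mRNAs mainly through its seed, bases 2 to 8, and lowers their translation or stability. Among the members, miR-669a has been studied as a repressor of MyoD in muscle and heart progenitors, miR-467b as a regulator of lipoprotein lipase in macrophages, and miR-466l as a regulator of interleukin-10.

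The sequences of members outside Sfmbt2 are shown because they let a reader see the repeat-like letters that these families share. RefSeq (GRCm38.p6) matched 9 of the 82 members by symbol or position and gave 8 mature miRNAs, written here 5′ to 3′ with the seed in capitals. miR-466q and miR-466i are the members of this group with reads.
miR-466q: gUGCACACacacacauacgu
miR-466i-3p: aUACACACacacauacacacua
miR-467f: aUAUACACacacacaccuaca
miR-467g: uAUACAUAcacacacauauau
miR-466j: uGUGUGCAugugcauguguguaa
miR-466k: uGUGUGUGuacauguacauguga
miR-467h: aUAAGUGUgugcauguauaugu
miR-669n: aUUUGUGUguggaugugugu
No seed was shared by any of these 8 mature miRNAs, although all are rich in CA or UG steps. Dinucleotides CA, AC, UG and GU made up 78.9% of the dinucleotides of miR-466q, 71.4% of those of miR-466i-3p and 50.0% of those of miR-467g, the lowest of the 8. The miR-466q hairpin lies at chr3:28419943-28420018 (mm10), in an intron of Tnik on the same strand. The miR-466i hairpin lies on chromosome 13, within an intron of Cdk13 and on the opposite strand.

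The cluster itself is compact. In GENCODE M21 (GRCm38, the assembly of mm10), 72 members lie inside Sfmbt2 (chr2:10370510-10595253, plus strand), all on the strand of the gene and none in an exon. They span 51.6 kb, from 10466663 to 10518279, within a single intron of 62472 bases that is intron 10 or intron 11 depending on the transcript. No other listed precursor lies inside the gene. The middle of the run is a repeat of miR-467, miR-466 and miR-669 hairpins in that order, found 12 times. From the start of each such triplet to the next the median distance was 2452 bases (2413 to 4880), and from miR-467 to the following miR-466 hairpin the median was 288 bases.

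In both libraries the members were at the lower end of what could be counted. Reads were listed for 42 of the 82 members in HC (51.2%) and for 39 in NC (47.6%), and 39 members had 0 counts in both. Over all 1187 precursors these shares were 55.9% and 58.2%. A count of 0 was given a 1-sided limit of 3 reads, which is 0.0918 CPM in HC and 0.0717 CPM in NC and lies below the upper end of a 2-sided Poisson interval, where CPM is counts per 1000000 of a library size scaled by TMM (the trimmed mean of M-values). No member reached a mean of 10 CPM, the level that 222 precursors reached, and 8 rows, all miR-467, reached 1 CPM, as did 335 precursors in all. The most abundant member, miR-467d, averaged 2.19 CPM, and the miR-467a copies ranked 304 among the 1187 precursors. A read of a mature miRNA covers it whole, so counts per hairpin were not divided by hairpin length.

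**Figure D1:**
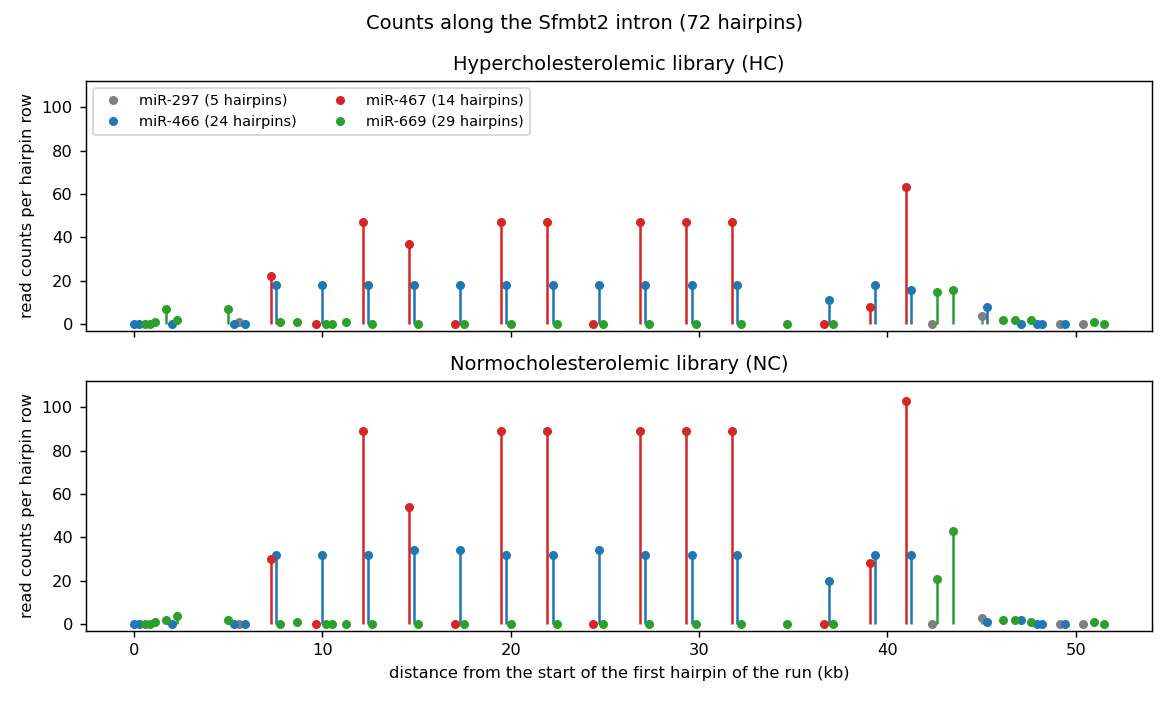
Read counts of the 72 hairpins inside Sfmbt2 (vertical axis, linear) against their distance from the first hairpin (horizontal axis, kb), for HC above and NC below, coloured by family. miR-467 and miR-466 hairpins between about 7 and 44 kb carry most reads, blocks of hairpins have the same height, and the ends of the run are near 0.

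Listed counts were not spread evenly along the rows of the intron. The first and last of the 26 rows in the gene with at least 10 counts over both libraries bounded a stretch. It ran from 7.27 to 43.5 kb from the first hairpin, so by definition no row beyond it reached 10 counts. The stretch held 47 rows, of which 18 had 0 counts in both libraries. The 12 rows before it and the 13 after it had at most 8 counts in HC and 4 in NC. The plot of counts along the intron shows this as a raised middle with flat ends in either library. Several of the counted rows are identical hairpins, whose reads cannot be placed at a single position. The profile thus describes listed rows, not the sites from which reads came.

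Many rows carried the same reads, which decides how their levels can be read. The 43 rows with any count held only 22 different pairs of HC and NC counts. Hairpins of identical sequence formed 7 sets with 26 rows, and in all 7 sets the copies had equal counts. In the sets of miR-467a-10, miR-669a-10 and miR-669p-1 every copy had 0 counts in both libraries, so their equality says nothing about shared reads. Copies of one sequence cannot be told apart by a read. Equal counts above 0 in identical hairpins are therefore read here as 1 pool of reads listed several times. Counted with 1 row per identical sequence, the members formed 63 sets, of which 24 had more than 3 counts in a library and so a fold. The 13 rows of miR-466b, miR-466c, miR-466e and miR-466p differ from each other by 0 to 6 edits when the shorter hairpin is aligned within the longer, and 12 of them had 18 counts in HC with 32 or 34 in NC. When rows with equal counts (within 1%, at least 20 counts) were also grouped, 17 groups with a fold remained.

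Near-identical hairpins also showed sharply different counts. miR-467a was listed 10 times. Its rows miR-467a-2, miR-467a-4, miR-467a-5, miR-467a-7, miR-467a-8 and miR-467a-9 are identical and had 47 counts in HC and 89 in NC each. Rows miR-467a-3, miR-467a-6 and miR-467a-10 are identical to each other, differ from these by 1 edit and had 0 counts in both libraries, and miR-467a-1, whose 73-base hairpin is contained whole in that of miR-467a-2, also had 0. miR-669a was listed 12 times. Its 9 identical rows had 0 counts in both libraries, although their 87-base hairpin is contained whole in that of miR-669a-2, which had 16 counts in HC and 43 in NC. miR-669a-1, also containing it whole and 4 edits from miR-669a-2, had 0. A 0 in such a row therefore does not measure the absence of a mature miRNA that other rows also hold. The sources used here do not say how the authors treated reads with several alignments, and its part in these zeros was not tested.

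miR-467 had the highest counts of any single row. Of its 14 hairpins in the run 12 open a triplet. Summed with rows of equal counts grouped, it had 5.42 CPM in HC and 7.26 in NC, above the 2.66 and 3.23 CPM of miR-466. Summed over sets of identical hairpins, miR-466 came to 6.52 and 8.62 CPM and miR-467 to the same values as before, so the order of these families depends on how copies are counted. miR-467d (chr2:10507630-10507714) had 63 counts in HC and 103 in NC, or 1.93 CPM (exact Poisson interval 1.48 to 2.47) and 2.46 CPM (2.01 to 2.98). Its log2 fold of HC over NC was -0.35 (exact binomial interval -0.83 to 0.11), so that a difference was not detectable at this depth. The 6 identical miR-467a rows, among them miR-467a-2 at chr2:10478798-10478880, had 1.44 CPM (1.06 to 1.91) in HC and 2.13 CPM (1.71 to 2.62) in NC. They were lower in HC, with a log2 fold of -0.56 (-1.11 to -0.04). With plain totals in place of TMM that interval reached 0 (-0.97 to 0.10).

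The lipase-linked miR-467b (chr2:10481248-10481320) stood at 1.13 CPM in HC with 37 counts and 1.29 CPM in NC with 54. Its fold of -0.19 (-0.83 to 0.44) did not separate the libraries. miR-467c had 22 counts in HC and 30 in NC, a log2 fold of -0.09 (-0.95 to 0.75), which became 0.04 with plain totals. miR-467e had 8 counts in HC and 28 in NC, and with 0.245 against 0.669 CPM it was lower in HC at -1.45 (-2.79 to -0.28). The other 3 members, miR-467f, miR-467g and miR-467h, lie outside Sfmbt2 and had 0 counts in both libraries. Of the 5 miR-467 sets with reads, 5 had log2 folds below 0 with TMM and 4 with plain totals, and with TMM the intervals of 2 lay wholly below it. Of all 521 precursors with a fold, 53.7% lay below 0 with TMM and 25.5% had such an interval.

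miR-466 takes the middle place in the triplets, and its rows had at most 18 counts in HC and 34 in NC. miR-466c-1 (chr2:10481534-10481617) and its near-copies miR-466c-2 and miR-466c-3 had 18 counts in HC and 34 in NC, 0.551 CPM against 0.812. 7 of the 8 miR-466b rows (all but miR-466b-3), miR-466e and miR-466p had 18 counts in HC and 32 in NC, 0.551 CPM (0.326 to 0.870) against 0.765 (0.523 to 1.08). Their log2 folds were -0.56 (-1.47 to 0.30) and -0.47 (-1.39 to 0.40), and the intervals of the levels overlap. miR-466a, with 16 and 32 counts, stood at -0.64 (-1.61 to 0.27), and miR-466b-3, with 11 and 20 counts, at -0.51 (-1.71 to 0.62). No miR-466 row had an interval below 0, beside 25.5% of all 521 precursors with a fold.

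A single miR-466 member was higher in HC by its interval, beside 23.0% of all 521 precursors with a fold. miR-466d (chr2:10511967-10512062), near the end of the run, had 8 counts in HC and 1 in NC, a log2 fold of 3.36 with a wide interval of 0.46 to 8.83 that rests on these 9 reads. miR-466q in the Tnik intron, outside the cluster, had 14 counts in each library, 0.428 CPM in HC and 0.334 in NC, with a log2 fold of 0.36 (-0.82 to 1.54). miR-466i had 2 counts in HC and 0 in NC, and miR-466n had 0 and 2, so no fold was formed for either. The remaining 11 miR-466 rows had 0 counts in both libraries, among them the interleukin-10 regulator miR-466l and all 4 copies of miR-466f.

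miR-669 had many hairpins and few reads. miR-669a-2 (chr2:10510164-10510260) had 16 counts in HC and 43 in NC, 0.490 CPM (0.280 to 0.795) against 1.03 CPM (0.743 to 1.38). It was 2.10-fold lower in HC (1.16 to 3.99), a log2 fold of -1.07. miR-669c, a neighbour at chr2:10509296-10509404, had 15 and 21 counts and a log2 fold of -0.13 (-1.19 to 0.90). miR-669d and miR-669d-2, at the start of the run, both had 7 counts in HC and 2 in NC, a ratio whose log2 interval ran from -0.23 to 5.47. miR-669l had 2 and 4 counts, and the other miR-669 rows had at most 2 counts in a library, with 17 of the 30 at 0 in both. Of the 5 miR-669 sets with a fold, miR-669a-2 alone had an interval that excluded equality. Among all 521 precursors with a fold, 25.5% had an interval below equality and 23.0% had one above it.

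miR-297 was close to the limit of counting. miR-297b had 4 counts in HC and 3 in NC, a log2 fold of 0.77 (-1.79 to 3.54), and miR-297a-2 had 1 count in HC and 0 in NC. The other 4 rows had 0 counts in both libraries, including miR-297a-1, a lone hairpin on chromosome 7 outside other annotated genes.

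**Figure D2:**
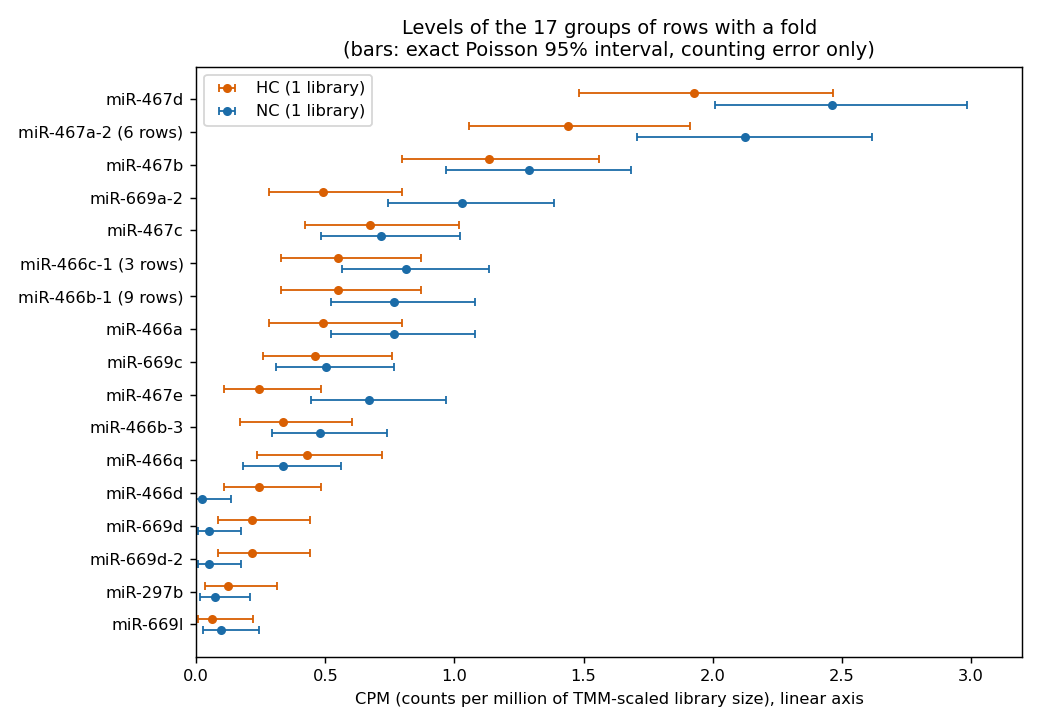
Level of each of the 17 groups of rows with a fold (CPM, linear axis) in HC (orange) and NC (blue), 1 library each, with exact Poisson 95% intervals of counting error. From miR-467d down to miR-466b-3 the HC point lies left of the NC point, with miR-467e and miR-669a-2 showing the widest relative gaps, while miR-466q, miR-466d, miR-669d and miR-297b lie the other way.

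Summed over the 63 sets, inside and outside Sfmbt2, the members had 453 counts in HC and 748 in NC, 13.9 CPM (12.6 to 15.2) against 17.9 CPM (16.6 to 19.2). The sum was lower in HC, with a log2 fold of -0.37 (-0.54 to -0.20). Different sets may still share reads, in which case these intervals are too narrow and the levels too high. With rows of equal counts grouped, the sum was 327 counts in HC and 522 in NC, 10.01 against 12.5 CPM, with a log2 fold of -0.32 (-0.52 to -0.12). With only the most abundant row of each of the 4 families, it was 101 and 183 counts and -0.50 (-0.87 to -0.14). Adding all 82 rows, which counts the reads of identical hairpins several times, gave 22.7 CPM in HC and 30.8 in NC. The log2 fold was then -0.44, and its interval (-0.57 to -0.31) is too narrow because of this repetition. The direction was the same however copies were counted, while the summed HC level ranged from 3.09 to 22.7 CPM.

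By family, and with rows of equal counts grouped, the sum was lower in HC for miR-467, with 177 counts in HC and 304 in NC and a log2 fold of -0.42 (-0.70 to -0.15). miR-466 had 87 and 135 counts and -0.28 (-0.68 to 0.12), whereas its 26 sets of identical hairpins, several of which have equal counts, gave -0.40 (-0.66 to -0.16). miR-669 had 58 and 80 counts and -0.11 (-0.62 to 0.40). The sum over the 53 sets inside Sfmbt2 was -0.39 (-0.57 to -0.22), and over the 10 members outside it was 0.55 (-0.58 to 1.70) from 16 and 14 counts. The difference between members inside and outside the gene was not tested.

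**Figure D3:**
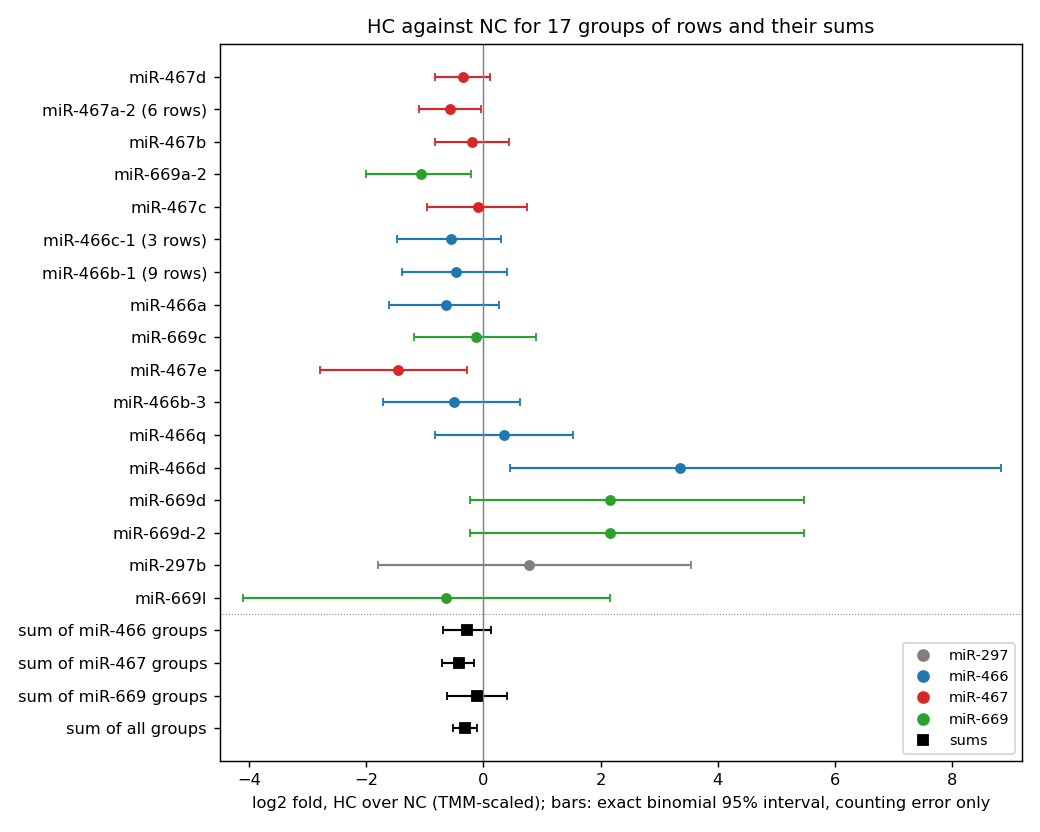
Log2 fold of HC over NC for the 17 groups of rows (circles, coloured by family) and for the sums over groups (black squares), with exact binomial 95% intervals of counting error and a line at equality. The intervals of miR-467a-2, miR-669a-2 and miR-467e lie below 0, that of miR-466d lies above it, and of the sums those of miR-467 and of all groups lie below 0.

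The members' calls and folds were set against those of all precursors. By the size rule (mean of at least 10 CPM, fold of at least 2, interval without equality), 5 of 222 precursors differed (2.25%), and 0 members could qualify because none reached 10 CPM. Without the level filter the rule called 6.33% of the 521 precursors with a fold, and 3 of the 32 member rows with a fold (9.38%, or 12.5% of the 24 sets): miR-669a-2 and miR-467e lower, and miR-466d higher in HC. Intervals lay below 0 for 3 of the 24 member sets with a fold (12.5%) and above 0 for 1 (4.17%), beside 25.5% and 23.0% of the 521 precursors, most of which were more abundant. Of the 335 precursors that averaged 1 CPM or more, 3.88% met the 2-fold and interval criteria and 36.7% were lower by their intervals, where of the 3 member sets 0 met the criteria and 1 was lower by its interval.

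Precursors of low abundance give a closer background. Among the 153 non-members with a mean of 0.2 to 5 CPM, 11.8% were lower and 12.4% higher in HC by their intervals, 52.3% had a log2 fold below 0, and the median log2 fold was -0.04. Of the 12 groups of member rows in that range, with equal counts grouped, 3 were lower (25%) and 0 higher, 11 had a log2 fold below 0 (91.7%), and the median was -0.49. The exception in this range was miR-466q, the group outside Sfmbt2. Over all 17 groups with a fold, 12 lay below 0 and 5 above, with a median of -0.35. By interval 3 of the 17 were lower and 1 higher. Under 0.2 CPM, miR-669l lay below 0, and miR-466d, miR-669d, miR-669d-2 and miR-297b, all inside Sfmbt2, lay above it. With plain totals 9 of the 12 groups lay below 0 with a median of -0.36, beside 42.5% of the non-members with a median of 0.09. The 12 groups come from 1 intron apart from miR-466q, and near-identical hairpins among them may share reads, so they are not 12 separate measurements. The range of 0.2 to 5 CPM was chosen after the values were seen. Abundance was not matched within it: 71 of the 153 non-members averaged at least 1 CPM, against 3 of the 12 groups. Shares called by interval depend on counts, so they are not compared at equal depth.

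**Figure D4:**
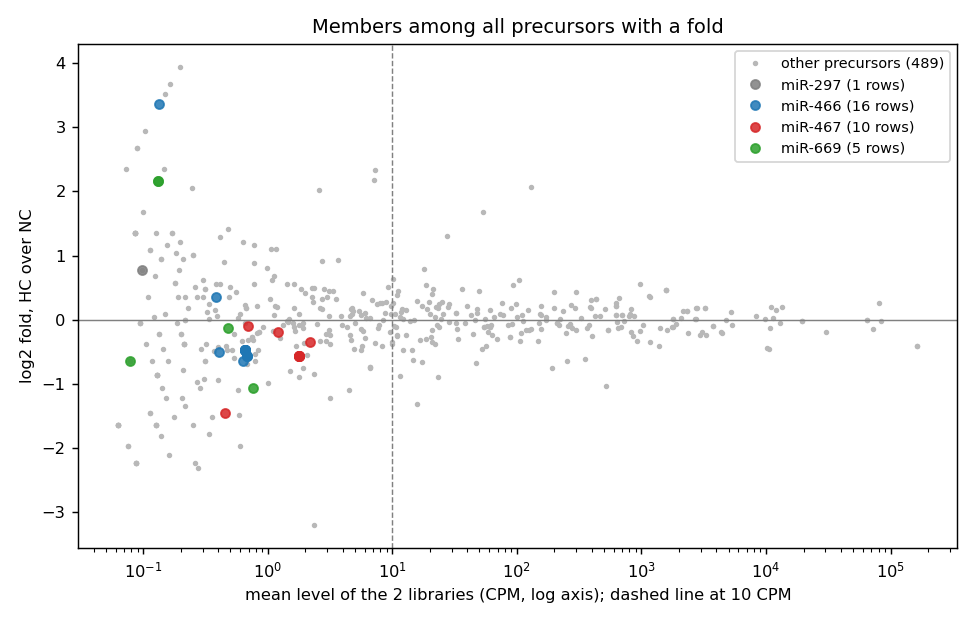
Log2 fold of HC over NC (vertical axis) against the mean level of the libraries (horizontal log axis, CPM) for the 521 precursors with a fold, with the members coloured by family and a dashed line at 10 CPM. All members lie left of 10 CPM, where folds of all precursors scatter widely, and those between 0.2 and 5 CPM lie mostly below 0.

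Other miRNA clusters with restricted expression were placed beside the members. The imprinted Dlk1-Dio3 cluster on chromosome 12 had reads for 54 of 60 rows in HC and 53 in NC, summed levels of 13198 and 12474 CPM over all rows, and a median log2 fold of 0.11. The miR-290 to miR-295 cluster of embryonic stem cells, by contrast, had 4 counts in HC and 2 in NC over 9 rows. The X-linked testis cluster had 19 and 29 counts over 19 rows, with reads in 6 and 9 of them. The members, at 22.7 and 30.8 CPM over all 82 rows with copies included, thus lay far below the Dlk1-Dio3 cluster and above the others. The lists differ in their number of rows. With equal counts grouped the members had 10.01 CPM in HC and 12.5 in NC, and with 1 row per family 3.09 and 4.37. The testis cluster summed to 0.58 CPM in HC and 0.69 in NC.

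Depth and tissue bear on all of these values. The precursors held 31198050 counts in HC and 43848576 in NC. All 10 listed muscle precursors (such as miR-1a, miR-133a and miR-206) had reads in both libraries, at 12.4 to 141556 CPM in HC and 7.98 to 187306 CPM in NC. Summed over its rows, copies included, the muscle list had 419376 CPM in HC and 510682 in NC, a log2 ratio of -0.28. Its rows differed: miR-133a-1 and miR-133a-2 stood at a log2 fold of -0.01 each and miR-133b at -0.20. The row lowest in NC, at 7.98 CPM, was higher in HC, where every row had at least 12.4 CPM. Lists of other cell types lay on either side of 0 or close to it. The leukocyte precursors miR-142a, miR-150 and miR-155 summed to 1963 CPM in HC and 2047 in NC, a log2 ratio of -0.06. Most of that sum was miR-142a, at 1784 CPM in HC and 1771 in NC, and miR-155 had 37.7 and 39.0 CPM. The rest was miR-150, which was lower in HC by a larger log2 fold than the ratio of any list given here. The leukocyte ratio thus does not describe its rows alike. miR-126a of endothelium had a log2 ratio of 0.03. The smooth muscle precursors miR-143 and miR-145a stood at -0.14, and miR-122 of liver at -0.01. The 7 epithelial and skin precursors, all with reads in both libraries, summed to 139.5 CPM in HC and 187.8 in NC, a log2 ratio of -0.43, and the 6 neuronal precursors of miR-124 and miR-9 summed to 16.9 and 27.4 CPM, a log2 ratio of -0.70. The erythrocyte precursors miR-451a and miR-144 summed to 608.8 CPM in HC and 467.9 in NC, a log2 ratio of 0.38, and miR-223 of neutrophils and macrophages had 340.3 and 250.9 CPM, a log2 ratio of 0.44. The part of muscle content and of these cell types in the members' values was not tested, and in bulk tissue fewer cells of a type and less RNA per cell cannot be told apart.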

How the data were processed

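Each deposited file lists raw read counts for miRNA precursors, as counted by the authors, with mm10 coordinates and 5 summary rows that stayed out of all sums. Per the submitters' processing notes, CASAVA 1.8.2, TopHat2 2.0.10 and HTSeq 0.5.4 were used. The sources used here do not give their roles, the adapter trimming or the handling of reads with several alignments. A deposited column headed RPM is a signal scaled by the authors, a constant multiple of the count within a library, and served only as an alternative scaling. A precursor's count sums both arms. Total precursor counts were 31198050 in HC and 43848576 in NC, and the labels' phenotype set the groups.

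Library sizes were scaled by TMM (edgeR 4.0.16, R 4.3.3, no edgeR test). A log2 fold is the ratio of counts per scaled size without pseudocount. Intervals are exact at 95% (Clopper-Pearson for ratios, Poisson for levels). They cover counting error alone, because each group held 1 library. Reads lacked molecular identifiers and can repeat a molecule, in which case the intervals are too narrow. No fold was formed with at most 3 counts in both libraries. All 82 hairpins matched a GENCODE M21 miRNA by position, and hairpin identity came from its transcripts. Interval coverage and the direction of set changes were checked on simulated counts drawn independently for each row. That simulation held no shared reads, no sums and no variation between animals. Named members were the 12 most abundant sets, members past the size rule, and at a mean of at least 1 CPM up to 4 sets per direction with the largest fold. The others with values were named after these were seen. Members and lists were chosen with earlier results of these data known.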

Additional observations from a re-analysis of the deposited data

Results flagged for a closer look

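Counts outside all precursors, which entered no comparison, made up 55.9% of listed counts in HC and 44.1% in the control library NC.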

How the results depend on the processing

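The summed log2 fold of the members stayed below 0, with its interval below 0, under the 9 alternatives tried: -0.23 with plain totals, -0.48 with the authors' denominators, -0.36 with median-of-ratios size factors, -0.44 with all rows summed, -0.32 with rows of equal counts grouped, -0.37 without the most abundant set, and, chosen after seeing the data, -0.36 with 1 row per miRNA name, -0.50 with 1 row per family and -0.39 inside Sfmbt2 only. With all rows summed, identical copies were counted several times, so that interval is too narrow. Relative to TMM, plain totals shift every log2 fold by 0.13 and the authors' denominators by -0.11. Each alternative changed 1 choice, and combinations were not tried. With rows of equal counts grouped, the interval ended at -0.12, closer to 0 than the size of the plain-totals shift. These choices together would thus give an interval that includes 0. The count of members past the size rule was 0 with each scaling. This was fixed in advance, because the most abundant member averaged 2.19 CPM and the rule asks for 10 CPM. At 1 CPM the count was also 0. Without a level filter it was 3 (1 higher, 2 lower), because the rule then admits members below these levels. The 12 named sets hold 7 different pairs of counts. With TMM 12 lay below 0, 2 of them by their intervals, and with plain totals 11 and 1. Of all 521 precursors with a fold, 53.7% lay below 0 with TMM and 25.5% by their intervals. With 1 library per group no library could be left out. No paired analysis was possible because each group holds 1 library. Depth limits most members: 39 of 82 had 0 counts in both libraries.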
